A study of Mus musculus with 6 samples.

Results

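RBM47 is an RNA-binding protein that serves as a cofactor of APOBEC1, the enzyme that edits messenger RNA (mRNA) by converting cytidine to uridine. APOBEC1 binds RNA weakly by itself, and cofactors with RNA recognition motifs, A1CF and RBM47, bring it to its sites. A separate family, the ADAR enzymes, converts adenosine to inosine in double-stranded RNA. Genes for 9 of these proteins were followed here by name among the 56262 genes of the table: Rbm47 with its paralogs A1cf and Rbm46, the more distant relatives Syncrip and Hnrnpr, the cytidine deaminases Apobec1 and Apobec3, and the adenosine deaminases Adar and Adarb1. The genes are defined by what they encode and not by a threshold on a measured value.

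The lungs came from 3 homozygous R/R mice and 3 WT littermates on the C57BL/6 background, all 8 weeks of age and untreated. In R/R mice both alleles of Rbm47 encode the K329R and K332R substitutions, which are knocked into the germline, so that every cell type of the lung that uses Rbm47 has them. K329 is a lysine to which the ubiquitin-like protein ISG15 can be attached, and K332 is a further lysine of mouse RBM47 that can also carry ISG15. RNA of whole lung was sequenced as paired reads, and gene counts measure how much mRNA a gene gives, not whether the mRNA is edited or substituted.

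The substituted codons lie in exon 3 of transcript Rbm47-202, which has 6, on the minus strand of chromosome 5 (GRCm38), and 7 of 10 annotated coding transcripts of Rbm47 contain them. The codon of K329 is AAG at chr5:66026272-66026274 and that of K332 is AAG at chr5:66026263-66026265. The reference coding sequence from codon 320 to codon 341 of Rbm47 (chr5:66026236-66026301, minus strand) is shown with the stretch of A1cf that aligns with it (codons 305 to 326, chr19:31932470-31932535, plus strand), since it is here that the mutant protein differs. Capitals mark the codons of K329 and K332 and the A1cf codons aligned with them.
Rbm47: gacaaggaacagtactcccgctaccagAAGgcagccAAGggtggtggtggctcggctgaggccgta
A1cf: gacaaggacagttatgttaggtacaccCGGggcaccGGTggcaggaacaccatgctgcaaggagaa
In A1cf the aligned codons are CGG at position 314 and GGT at position 317, neither of which encodes lysine. Over the 530 codons that could be aligned, Rbm47 and A1cf shared 57.4% of their coding bases. Rbm47 and Rbm46 shared 53.8% over 505 codons, and Rbm47 shared 51.2% with Syncrip and 53.3% with Hnrnpr. Syncrip and Hnrnpr were the closest pair, with 75.6% over 620 codons. The longest identical run between transcripts of any 2 of the 9 genes was 57 bases, which is below the read length of 150 bases.

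The 6 lungs held between 16501092 and 18141067 counted read pairs each. Of all genes, 17120 had enough counts to be tested, and these were compared between the genotypes with edgeR's quasi-likelihood test. At a Benjamini-Hochberg adjusted p of 0.05, 300 genes passed, which is 1.75% of those tested, with 111 higher and 189 lower in R/R lungs. The marker genes of lung epithelium and endothelium were abundant in every lung. Summed markers of alveolar macrophages (Marco, Chil3, Ear2, Mrc1, Car4) ranged from 905 to 1010 CPM (counts relative to the total of the lung) in R/R lungs and from 633 to 798 CPM in WT lungs, with Chil3 and Mrc1 called higher, Marco and Ear2 not called, and Car4 lower in value and not called. The B cell markers Ms4a1, Cd79a and Pax5 were called lower. In whole tissue, fewer cells of a type and less RNA per cell cannot be told apart.

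Of the 9 genes, 8 were tested and 1, A1cf, had no counts at all. None of the 8 passed the threshold, where 0.648% of all tested genes were called higher in R/R lungs and 1.10% lower. The values of 2 genes, Rbm47 and Syncrip, were higher in R/R lungs and those of 6 were lower, and the median log2 fold change of the 8 was -0.10, against 0.00 over all tested genes. The direction of Syncrip flipped to below 0 with DESeq2 and with its size factors in edgeR, at -0.00 in both. An unadjusted p under 0.05 was found for 2 of the 8 (Adarb1 and Apobec1), where 14.2% of all tested genes had one. The genotypes did not overlap for 3 of the 8 (Apobec1, Adarb1 and Hnrnpr, each lower in R/R lungs), where 18.7% of all tested genes did not overlap, 9.16% with R/R above WT and 9.50% with R/R below.

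**Figure D1:**
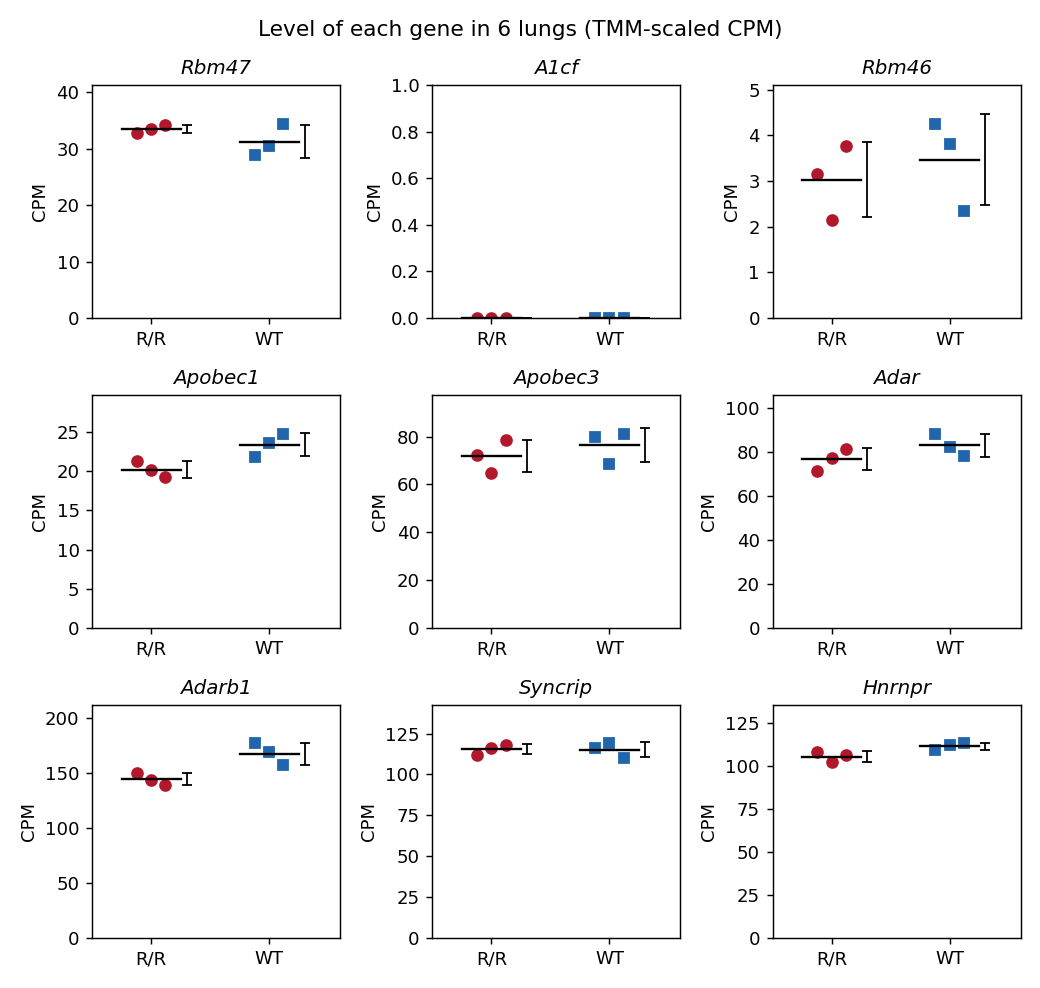
Level of each of the 9 genes in the 6 lungs, in CPM on linear axes that start at 0. Points are lungs (red circles R/R, blue squares WT), the horizontal line is the mean and the bar beside it the SD (n = 3 for each genotype). The groups overlap for every gene apart from Apobec1, Adarb1 and Hnrnpr, and A1cf sits at 0 in all lungs.

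Rbm47 (ENSMUSG00000070780.11, chr5:66016549-66173118, minus strand) is the gene that carries the substitutions. Its level was 32.7, 33.5 and 34.1 CPM in R/R lungs 1, 2 and 3, and 28.8, 30.5 and 34.4 CPM in WT lungs 1, 2 and 3. WT lungs 1 and 2 lay below every R/R lung, while WT lung 3 was the highest of the 6, so the groups overlapped. R/R lungs averaged 33.4 ± 0.712 CPM and WT lungs 31.2 ± 2.89 CPM (SD, n = 3 each). The log2 fold change of R/R against WT was 0.10 (standard error 0.08, 95% interval -0.08 to 0.28), which is a ratio of 1.07 with an interval from 0.946 to 1.21 (edgeR adjusted p = 0.660). An exact two-sided permutation test of log2 CPM gave p = 0.4, where 3 lungs against 3 cannot go below 0.1. Exons of Rbm47 share 3.85% of their bases with Gm43323 and 1.56% with Gm26725. Read pairs lying wholly in such stretches were not counted.

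A1cf (ENSMUSG00000052595.8, chr19:31868764-31948995, plus strand) encodes the APOBEC1 cofactor best known from liver, kidney and intestine. No read pair was counted on it in any of the 6 lungs, out of 103557817 in all. A count of 0 allows up to 3 counts a lung, which is between 0.166 and 0.182 CPM, or at most 0.0483 CPM per kb of exon. Per kb of exon, the mean level of Rbm47 was at least 93.4 times that limit. Markers of 2 of the tissues that use A1cf were themselves at or near 0 in these lungs. Those of hepatocytes (Alb, Apoa1, Apoc3, Ttr, Serpina1a) summed to between 0.295 and 1.55 CPM, with Apoc3 and Serpina1a at 0, and those of enterocytes (Vil1, Fabp2, Lct, Apoa4, Cdx1) to between 0.995 and 1.94 CPM, with Apoa4 at 0.

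Rbm46 (ENSMUSG00000033882.15, chr3:82837228-82876483, minus strand) encodes an RNA-binding protein known from germ cells. It was the lowest of the genes that had counts, at 3.16, 2.15 and 3.77 CPM in R/R lungs and 4.25, 3.81 and 2.34 CPM in WT lungs. The genotypes overlapped widely, and lungs within a genotype differed by more than the means of the genotypes did. At 336 read pairs over all 6 lungs its log2 fold change of -0.19 was the least precise of the 8, with an interval from -0.80 to 0.41 (edgeR adjusted p = 0.821). It was -0.00 without R/R lung 2 and -0.03 without WT lung 1, -0.12 without WT lung 2, and -0.38 and -0.41 without R/R lung 3 and WT lung 3. Summed markers of germ cells (Ddx4, Dazl, Sycp3, Tex101, Stra8) were low in both groups, from 1.11 to 1.55 CPM in WT lungs, a range that held the R/R lungs.

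Syncrip (ENSMUSG00000032423.12, chr9:88447009-88482574, minus strand) and Hnrnpr (ENSMUSG00000066037.14, chr4:136310942-136359447, plus strand) encode the hnRNP proteins Q and R, of which the former is known to bind the APOBEC1 complex. Syncrip was at 112, 116 and 118 CPM in R/R lungs and at 116, 119 and 110 CPM in WT lungs. The groups overlapped and their means were alike, with a log2 fold change of 0.00 (95% interval -0.12 to 0.13, edgeR adjusted p = 0.997). Hnrnpr was at 108, 102 and 106 CPM in R/R lungs and at 109, 112 and 113 CPM in WT lungs. Every R/R lung lay below every WT lung, with the closest pair 108 and 109 CPM. Its log2 fold change was -0.08 (standard error 0.05, 95% interval -0.20 to 0.04, edgeR adjusted p = 0.566), and the exact permutation test gave 0.1, the smallest p the design allows.

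Apobec1 (ENSMUSG00000040613.14, chr6:122577792-122602444, minus strand) encodes the cytidine deaminase for which Rbm47 and A1cf supply cofactors, and its classical substrate is the mRNA of apolipoprotein B. It was at 21.3, 20.1 and 19.2 CPM in R/R lungs and at 21.8, 23.6 and 24.8 CPM in WT lungs. No R/R lung reached the lowest WT lung, although R/R lung 1 came close to WT lung 1. The log2 fold change was -0.21 (standard error 0.09, 95% interval -0.40 to -0.02), a ratio of 0.863, and it did not pass (edgeR adjusted p = 0.294). The exact permutation test again gave its smallest value of 0.1.

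Apobec3 (ENSMUSG00000009585.18, chr15:79891659-79915906, plus strand) encodes a deaminase that acts on single-stranded DNA of retroviruses. It was at 72.5, 65.0 and 78.5 CPM in R/R lungs and at 79.9, 68.4 and 81.3 CPM in WT lungs. The lungs of both genotypes covered nearly the same range, and the log2 fold change was -0.09 (95% interval -0.27 to 0.10, edgeR adjusted p = 0.717). It was -0.02, -0.06 and -0.04 without R/R lung 2, WT lung 1 and WT lung 3, and -0.15 and -0.16 without R/R lung 3 and WT lung 2. Exons of Apobec3 share 7.15% of their bases with D730005E14Rik, so its count leaves out read pairs lying wholly there.

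Adar (ENSMUSG00000027951.16, chr3:89715022-89753446, plus strand) encodes ADAR1, whose long form is interferon-inducible and keeps the cell's own double-stranded RNA from being sensed as foreign. Its level was 71.5, 77.4 and 81.5 CPM in R/R lungs and 88.4, 82.5 and 78.2 CPM in WT lungs. R/R lung 3 lay above WT lung 3, so the groups overlapped. The log2 fold change was -0.11 (standard error 0.07, 95% interval -0.26 to 0.04, edgeR adjusted p = 0.518). A share of 16.8% of the exon bases of Adar overlaps Chrnb2 on the opposite strand. Without strand in the counting, read pairs lying wholly there were assigned to neither gene.

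Adarb1 (ENSMUSG00000020262.15, chr10:77290726-77418270, minus strand) encodes ADAR2, which recodes the mRNAs of neuronal receptors and of several proteins outside the nervous system. It was at 150, 144 and 139 CPM in R/R lungs and at 177, 169 and 157 CPM in WT lungs. All R/R lungs lay below all WT lungs, and the gap between R/R lung 1 and WT lung 3 was smaller than the spread within either genotype. R/R lungs averaged 144 ± 5.33 CPM and WT lungs 168 ± 10.1 CPM (SD, n = 3 each). The log2 fold change was -0.21 (standard error 0.06, 95% interval -0.35 to -0.08), a ratio of 0.862. Its edgeR adjusted p of 0.127 was the smallest among the tested genes of the set and missed the threshold. Without WT lung 3 the adjusted p was 0.0461, and without each other lung in turn it lay above 0.05, up to 0.392. Summed markers of fibroblasts and smooth muscle (Col1a1, Col1a2, Pdgfra, Acta2, Myh11), all 5 of which had lower values in R/R lungs with none passing the test, ranged from 2020 to 2270 CPM in R/R lungs and from 2270 to 2660 CPM in WT lungs. Those of endothelium (Pecam1, Cdh5, Cldn5, Kdr, Tie1) ranged from 3960 to 4130 CPM in R/R lungs and from 4070 to 4580 CPM in WT lungs. The part of these cell types in the values of Adarb1 was not tested.

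**Figure D2:**
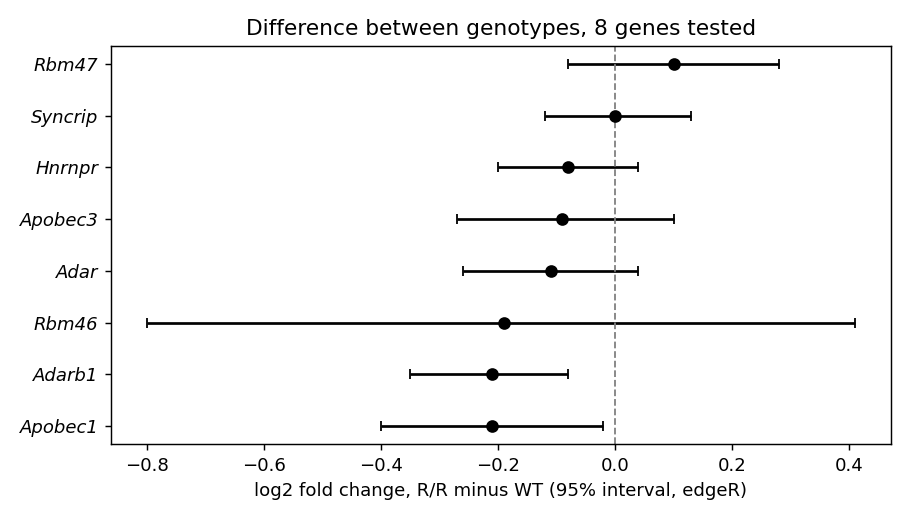
Log2 fold change of R/R against WT for the 8 tested genes, with the 95% interval from edgeR as a bar. Only the intervals of Adarb1 and Apobec1 leave out 0, Rbm46 has the widest interval at -0.80 to 0.41, and none of the 8 passed the adjusted threshold.

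Levels of different genes were compared as CPM divided by the summed length of each gene's annotated exons in kb. Adarb1 was highest at 13.8 ± 1.29 CPM per kb (SD over 6 lungs), followed by Adar at 9.84 ± 0.699, Syncrip at 9.37 ± 0.275, Apobec1 at 8.07 ± 0.774 and Apobec3 at 7.86 ± 0.707. Hnrnpr came next at 4.89 ± 0.175 CPM per kb, then Rbm47 at 4.51 ± 0.313 and Rbm46 at 1.30 ± 0.341. Rbm47 thus stood at percentile 48.5 of all tested genes per kb, Adarb1 at 77.3, Apobec1 at 63.6 and Rbm46 at 23.3.

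Neighbours in this order were compared by an exact two-sided paired permutation test over the 6 lungs, with 8 pairs compared. The order was itself taken from these lungs and the ratio moves with the length used, so the test says only how evenly a step per kb of exon held over the lungs. Adarb1 exceeded Adar in 6 of 6 lungs by a mean ratio of 1.41, Apobec3 exceeded Hnrnpr in 6 of 6 lungs by 1.61, and Rbm47 exceeded Rbm46 in 6 of 6 lungs by 3.47. Each gave an exact p of 0.0312, the smallest that 6 lungs allow, and an adjusted p of 0.0625. The steps from Adar to Syncrip and from Hnrnpr to Rbm47 held in 5 of 6 lungs (exact test, adjusted p = 0.107), that from Syncrip to Apobec1 in 5 of 6 (exact test, adjusted p = 0.1), and that from Apobec1 to Apobec3 in 4 of 6 (exact test, adjusted p = 0.594).

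The order depended on the length by which a gene was divided. Over the longest annotated transcript of each gene, Apobec3 led at 24.3 CPM per kb, ahead of Adarb1 at 23.4, and Rbm47 stood at 6.21, above Hnrnpr at 5.06. Over the shortest transcript with a CCDS coding sequence, a length chosen after the values were seen, Hnrnpr led at 42.7 CPM per kb, and Rbm47 at 14.8 stood above Apobec1 at 10.5. The annotated exons of Hnrnpr span 22199 bases in all but 2543 bases in that short transcript, and its place moved most. Rbm46 and A1cf were the last 2 with each of the 3 lengths.

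**Figure D3:**
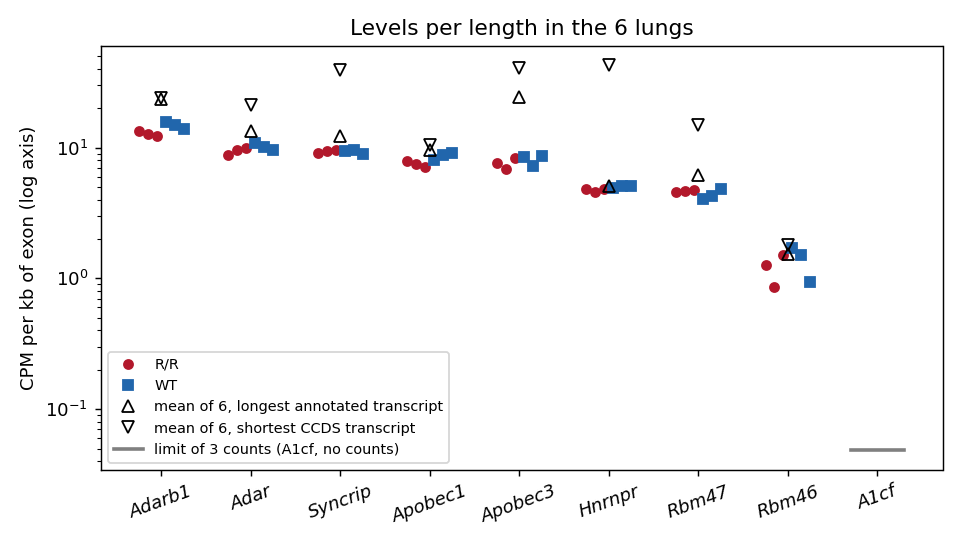
CPM per kb of exon in each lung on a log axis (red circles R/R, blue squares WT), with open triangles for the mean of the 6 lungs over the longest transcript and over the shortest CCDS transcript. Rbm47 lies between Hnrnpr and Rbm46 per kb of exon, and the grey line gives the limit of 3 counts for A1cf, which had no counts.

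The level of Rbm47 was compared lung by lung with that of other genes. Among 11140 other genes whose mean log2 CPM reached 3, the 3 whose log2 CPM tracked that of Rbm47 best over the 6 lungs were Arhgdig (Pearson's r and Spearman's correlation both 1 after rounding), Wfdc2, which encodes a secreted protein of epithelium (r = 0.996, Spearman's correlation 1), and Ttc9 (r = 0.992, Spearman's correlation 0.943). These were picked as the highest of many values over only 6 lungs, in which 185 genes had an r above 0.9, so they describe these lungs and carry no test. Wfdc2 was at 361, 384 and 391 CPM in R/R lungs and at 280, 305 and 408 CPM in WT lungs. As with Rbm47, WT lungs 1 and 2 were the lowest and WT lung 3 the highest. Without WT lungs 1 and 2, the 2 farthest from the median of Rbm47, r was 0.998 for Arhgdig, 0.982 for Wfdc2 and 0.957 for Ttc9 over the 4 lungs left.

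Among the pan-epithelial markers, Epcam and Cdh1, which encode adhesion proteins of epithelial cells, had an r of 0.952 and 0.917 with Rbm47. Over the 4 lungs left, r was 0.216 for Epcam and 0.457 for Cdh1. In those lungs Rbm47 spanned only 32.7 to 34.4 CPM, so a lower r there is no test. Arhgdig, Wfdc2 and Ttc9 were picked for their r over the same lungs, so their values cannot be set against these. Epcam was at 54.8, 59.0 and 56.5 CPM in R/R lungs and at 41.4, 48.6 and 55.8 CPM in WT lungs. The 5 pan-epithelial markers (Epcam, Cdh1, Krt8, Krt18, Cldn18) all had higher values in R/R lungs, none passing the test, and summed to between 1370 and 1450 CPM in R/R lungs and between 1220 and 1310 CPM in WT lungs. Summed markers of alveolar type 2 cells (Sftpc, Sftpb, Sftpa1, Lamp3, Abca3), all 5 higher in value and again none passing, ranged from 21500 to 22700 CPM in R/R lungs and from 16900 to 21000 CPM in WT lungs. For both sums WT lung 3 lay below every R/R lung, whereas for Rbm47 it was the highest lung. Markers of club and ciliated cells (Scgb1a1, Scgb3a2, Foxj1, Tppp3, Ccdc153) summed to 11500, 15100 and 14500 CPM in R/R lungs. In WT lungs their sums were 10200, 9440 and 14100 CPM, with WT lung 3 above R/R lung 1. Of these markers 3 had higher and 2 lower values, none called. Of the alveolar type 1 markers (Ager, Hopx, Pdpn, Rtkn2, Aqp5), 4 had higher and 1 lower values. Only Aqp5 was called (log2 fold change 0.27, edgeR adjusted p = 0.0459). The part of epithelial cells in the level of Rbm47 was not tested.

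**Figure D4:**
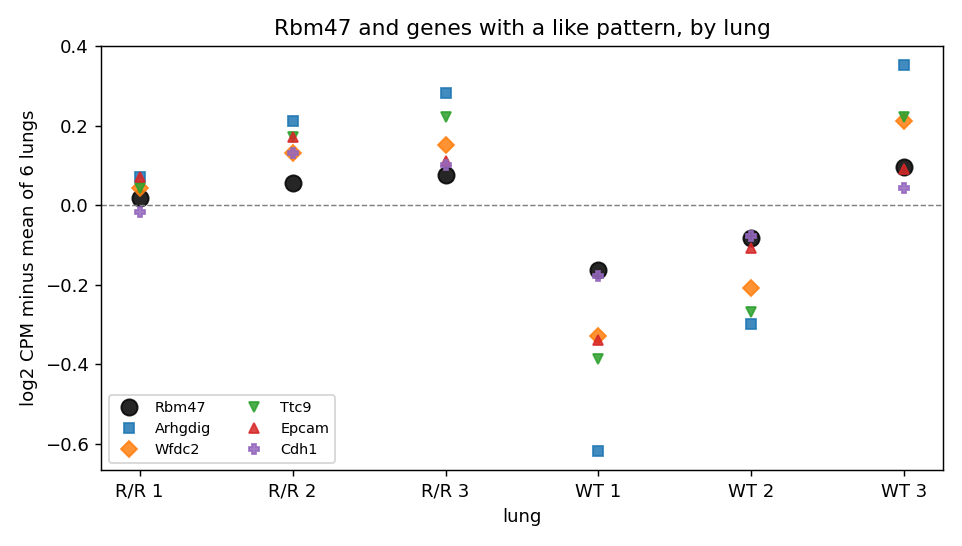
Log2 CPM of Rbm47 and 5 other genes in each lung, minus the gene's mean over the 6 lungs (y axis, log2 units; x axis, lung). All 6 genes lie below their mean in WT lungs 1 and 2 and above it in R/R lungs 2 and 3 and in WT lung 3, and Rbm47 varies least in size among them.

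The surroundings of these 9 genes were described with 9 further lists of 142 genes in all, of which 127 were tested. In R/R lungs, 53 had higher values and 74 lower, and 4 passed the adjusted threshold, each of them lower (Cyfip2, Oas3, Irf7 and Rsad2), where 1.10% of all tested genes were called lower. An unadjusted p under 0.05 was found for 22 of the 127, beside 14.2% of all tested genes. The 4 called genes came from 3 of the 9 lists.

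The list of further deaminases held 11 genes, of which 5 were tested and none passed (median log2 fold change 0.10). Adarb2, Adad2 and Adat3 had no counts. Read pairs shared with an overlapping gene were left out, and overlaps were looked for only for the genes followed by name. The lack of counts therefore does not show that these genes are silent in lung. Cdadc1 was the highest of the list at 7.67 CPM per kb, and its log2 fold change was 0.04 (edgeR adjusted p = 0.871). Adat2, a deaminase of transfer RNA, had the largest difference among those at or above the minimum level, at 0.10 (edgeR adjusted p = 0.883).

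Of the 7 cofactors and binders of APOBEC1 and its complex, 5 had higher and 2 lower values in R/R lungs, and none passed (median 0.01). Ddx17, an RNA helicase, was the most abundant at 111 CPM per kb and had the largest difference in size, -0.11 on the log2 scale (95% interval -0.26 to 0.03, edgeR adjusted p = 0.493). Of 27 mRNAs known as APOBEC1 substrates, 25 were tested, 16 with higher and 9 with lower values, and none passed (median 0.03). B2m, the light chain of MHC class I, was the highest at 855 CPM per kb, with a log2 fold change of 0.05 (edgeR adjusted p = 0.841). Bche, which encodes butyrylcholinesterase, was at 10.9, 10.5 and 9.78 CPM in R/R lungs and at 5.53, 6.51 and 8.96 CPM in WT lungs. All R/R lungs were above all WT lungs, and the log2 fold change of 0.57 (standard error 0.17) did not pass (edgeR adjusted p = 0.138). Apob itself, the classical substrate, had 113 read pairs over the 6 lungs and a log2 fold change of -0.43 with an interval from -1.46 to 0.60 (edgeR adjusted p = 0.757).

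The 13 regulators and binders of ADAR enzymes were divided between 6 with higher and 7 with lower values, and none passed (median -0.01). Srsf9, a splicing factor, was the highest at 32.5 CPM per kb, with a log2 fold change of 0.00 (edgeR adjusted p = 0.990). Wwp2, a ubiquitin ligase that acts on ADAR2, was at 59.5, 59.5 and 59.4 CPM in R/R lungs and at 65.7, 67.7 and 73.3 CPM in WT lungs. The R/R lungs were nearly identical to each other and below all WT lungs, with a log2 fold change of -0.21 that did not pass (standard error 0.06, edgeR adjusted p = 0.131).

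Of 21 mRNAs recoded by ADAR enzymes, 16 were tested, 7 with higher and 9 with lower values, and the median was -0.01. Only Cyfip2, a subunit of the WAVE complex that remodels actin, passed. It was at 30.0, 28.0 and 30.9 CPM in R/R lungs and at 41.3, 36.6 and 43.3 CPM in WT lungs. The groups were well separated, and Cyfip2 fell by 0.45 on the log2 scale (standard error 0.08, edgeR adjusted p = 0.0269). The call was lost without WT lung 1 (adjusted p = 0.102) and without each R/R lung in turn (0.0534, 0.110 and 0.0566). Summed T cell markers (Cd3d, Cd3e, Cd3g, Cd4, Cd8a) ranged from 18.7 to 24.5 CPM in R/R lungs and from 27.3 to 36.4 CPM in WT lungs. None of these was called, whereas the B cell markers Ms4a1, Cd79a and Pax5 were called lower. The part of T cells and of B cells in Cyfip2 was not tested. Igfbp7 was the highest of the list at 665 CPM per kb, with a log2 fold change of -0.19 (edgeR adjusted p = 0.302). The receptor mRNAs Gria2, Gria4, Grik1 and Kcna1, known from neurons, were too low to test.

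Of 14 sensors of double-stranded RNA, which respond to RNA that ADAR1 would otherwise edit, 3 had higher and 11 lower values, and the median was -0.11. Oas3, an oligoadenylate synthetase that activates RNase L, was at 5.16, 4.48 and 6.07 CPM in R/R lungs and at 10.5, 8.06 and 10.4 CPM in WT lungs. No lung overlapped, and Oas3 fell by 0.88 on the log2 scale (standard error 0.17, edgeR adjusted p = 0.0308). Without WT lung 1, R/R lung 1 or R/R lung 2 the adjusted p was 0.120, 0.0638 and 0.117. Mavs, the mitochondrial adaptor of these sensors, was the highest at 13.1 CPM per kb, with a log2 fold change of 0.07 (edgeR adjusted p = 0.741). For Ifih1, which encodes the sensor MDA5, the log2 fold change was -0.10 (edgeR adjusted p = 0.510).

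Of 18 type I interferon-induced and ISG15 conjugation genes, all 18 had lower values in R/R lungs (median -0.25), where 48.8% of all tested genes had lower values, and 2 passed. The genes are induced together by interferon, and their values are not independent of each other. The list was also chosen with a fall of interferon genes in these data known, so the 48.8% beside it makes no test. Irf7, a transcription factor of the interferon response, was at 23.1, 27.4 and 28.3 CPM in R/R lungs and at 35.8, 39.4 and 37.9 CPM in WT lungs. The groups stood clearly apart, and Irf7 fell by 0.52 on the log2 scale (standard error 0.09, edgeR adjusted p = 0.0172). Rsad2, which encodes the antiviral protein viperin, was at 6.05, 6.34 and 8.01 CPM in R/R lungs and at 12.4, 12.2 and 10.1 CPM in WT lungs, and fell by 0.77 (standard error 0.15, edgeR adjusted p = 0.0321). Irf7 was not called without R/R lung 2 (adjusted p = 0.0619) or WT lung 2 (0.0599), and Rsad2 not without R/R lung 1, R/R lung 2, WT lung 1 or WT lung 2 (0.0873, 0.127, 0.131 and 0.106).

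Ifit1 had the largest difference of the interferon list, -0.83 on the log2 scale, and did not pass (edgeR adjusted p = 0.0739). It was at 16.2, 19.7 and 16.4 CPM in R/R lungs and at 23.9, 24.5 and 44.7 CPM in WT lungs, the last of which stood far above the rest. Bst2 was the most abundant at 101 CPM per kb, with a log2 fold change of -0.03 (edgeR adjusted p = 0.925). Over the settings of test, scaling and filter all 18 kept lower values in R/R lungs, and 16 to 18 did when each lung was left out in turn. Adar and Apobec3, both known as interferon-inducible, had log2 fold changes of -0.11 and -0.09, smaller in size than the list's median. Summed markers of monocytes and interstitial macrophages (Ccr2, Ly6c2, Cx3cr1, C1qa, Csf1r) ranged from 263 to 278 CPM in R/R lungs and from 278 to 300 CPM in WT lungs, with none of the 5 called. Summed neutrophil markers (S100a8, S100a9, Retnlg, Csf3r, Cxcr2), all 5 lower in value with none called and a median log2 fold change of -1.19, ranged from 63.8 to 93.4 CPM in R/R lungs and from 66.4 to 188 CPM in WT lungs. The T cell markers, whose sums are given above, were likewise all 5 lower in value with none called, at a median of -0.42. Of the B cell markers, Ms4a1, Cd79a and Pax5 fell by 0.99, 0.67 and 0.58 on the log2 scale (edgeR adjusted p = 0.00675, 0.0491 and 0.0434). The part of these cell types in the interferon genes was not tested.

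An interferon-stimulated response element core (GAAA, any 2 bases, GAAA), on either strand, was looked for in RefSeq promoters (250 bases before to 50 after a gene's start, GRCm38.p6). It occurred in 3.44% of 32851 promoters, and in 1 of the 15 promoters of the 9 genes, that of Apobec3. Of the interferon list, 6 of the 13 genes with a promoter in the table had it (Bst2, Ifit1, Ifit3, Isg15, Rsad2 and Stat2), beside 3.99% of all 27025 genes. The Apobec3 promoter around the match, which begins 140 bases before the start (chr15:79892243-79892302, plus strand), is given with the matched bases in capitals, on the strand where it reads as the reverse complement.
Apobec3: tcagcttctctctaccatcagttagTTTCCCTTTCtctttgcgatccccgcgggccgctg
A match describes these letters and is not a measured binding site. Only the exact pattern was counted, so a promoter without a match may hold a close variant. A promoter of Adar (chr3:89730468-89730767) holds GAAAGTGAAC and GAAAAGGAAC, each of which departs from the pattern in its last base. The share of all promoters with such a variant was not counted, so these do not set Adar apart from other genes.

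The remaining lists held no called gene. Of 23 other hnRNP genes, 7 had higher and 16 lower values (median -0.02), with Hnrnpa0 the highest at 124 CPM per kb (log2 fold change 0.05, edgeR adjusted p = 0.839) and Hnrnpc the one with the largest difference, -0.16 (95% interval -0.29 to -0.02, edgeR adjusted p = 0.269). Of 9 mRNAs known as bound or regulated by RBM47, 7 were tested, 5 with higher and 2 with lower values (median 0.04). Tjp1, which encodes the tight junction protein ZO-1, was the highest at 80.9 CPM per kb, with a log2 fold change of -0.03 (edgeR adjusted p = 0.884). Tsc22d3, which encodes the glucocorticoid-induced protein GILZ, had the largest difference at 0.34 (95% interval -0.14 to 0.82, edgeR adjusted p = 0.535). It was at 114, 251 and 135 CPM in R/R lungs and at 143, 127 and 125 CPM in WT lungs. R/R lung 2 alone stood far above the others, while R/R lung 3 lay within the range of WT lungs and R/R lung 1 below it. The list was drawn up with the study's account of Tsc22d3 known, and so is not independent of it.

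**Figure D5:**
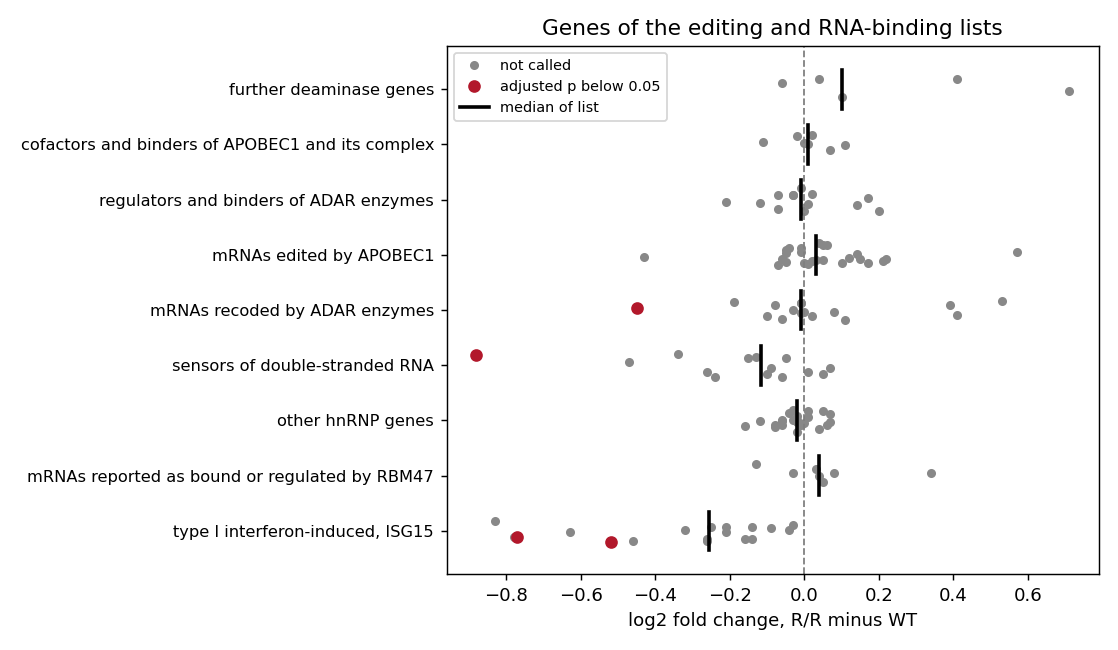
Log2 fold change of R/R against WT (x axis) for the tested genes of the 9 lists (rows), with a black line at each list's median. The 4 genes with an adjusted p below 0.05 are red and lie to the left of 0, and all 18 interferon genes lie below 0, while the medians of the lists of APOBEC1 cofactors, ADAR regulators and hnRNP genes lie between -0.02 and 0.01.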

How the data were processed

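RNA of 6 whole lungs (3 R/R, 3 WT) was sequenced, and the labels gave genotype and replicate number. Reads were aligned by the authors with HISAT2 2.1.0 to GRCm38 (mm10). Their deposited table holds unnormalized counts of read pairs, made by featureCounts 2.0.1 over GENCODE M25 exons, without strand and without multi-mapping or multi-overlapping pairs. The deposited table also gives each gene's exon length. One column is recorded as an expected or estimated count because a check misread the header comment, but its deposited values are whole numbers and none was rounded. The processing notes name DESeq2 and the supplement edgeR.

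Symbols came from GENCODE M21 by identifier (55227 of 56262 matched). Calculations used R 4.3.3, edgeR 4.0.16 (filterByExpr with minimum count 10 and minimum total 15, TMM, glmQLFit, glmQLFTest, Benjamini-Hochberg over all 17120 tested genes, threshold 0.05), limma 3.58.1 and DESeq2 1.42.0, after a test on simulated data. Single genes were also compared by exact permutation of log2 CPM with a prior count of 0.5. The supplement calls the lungs biological replicates, and libraries of 1 genotype differed by more than counting noise (chi-square per degree of freedom 5.22 to 8.31). The limit set by a count of 0 covers counting error only.

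Named genes were the 9 genes, called list genes, each list's highest gene per kb and its largest log2 fold change where the mean log2 CPM reached 1, and the 3 genes most correlated with Rbm47. Apob, Ifih1, Epcam, Cdh1, Adarb2, Adad2, Adat3 and the untested receptor genes were added after their values were seen. The 9 genes were named by function and the lists by known roles, but both were chosen with earlier results of these data known, among them the level of Rbm47 and a fall of interferon genes. Sequences are from RefSeq and the GRCm38 annotation, and alignments were made by codon. Alternatives were other tests, scalings, filters and thresholds, the replicate number as a block, other gene lengths, and each lung left out. Some genes and marker sums are not reported here.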

Additional observations from a re-analysis of the deposited data

How the results depend on the processing

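Where 300 genes were called, edgeR's exact test called 630, DESeq2 541, a fit with no filter beyond 1 count in total 1109, an adjusted p of 0.01 40 and an adjusted p of 0.1 548, and leaving out 1 lung at a time 65 to 621. None of the 9 genes was called under any of these, other than Adarb1 without WT lung 3, so that the count was 0 to 1 with lungs left out. Of the genes of the further lists, 4 were called in the edgeR quasi-likelihood test, 7 in the exact test and 13 with no filter. At an adjusted p of 0.01 it was 0 of them, at 0.1 it was 7, and with a lung left out 0 to 10. The log2 fold change of Rbm47 was 0.10 in all 8 other settings of test, scaling, filter and design (adjusted p 0.644 to 0.857) and 0.04 to 0.17 with a lung left out (adjusted p 0.337 to 0.946). Syncrip, at 0.00, turned to -0.00 with DESeq2 and with its size factors in edgeR, and ranged from -0.03 to 0.02 with a lung left out. For the other 6 tested genes the sign held in every setting, but with a lung left out Rbm46 ranged from -0.41 to -0.00 and Apobec3 from -0.16 to -0.02. With the length changed, 5 instead of 6 genes stood above Rbm47. After each gene's genotype mean was subtracted, R/R and WT lungs of the same number correlated at -0.01, -0.00 and -0.01. These values gave no sign that the replicate numbers pair the lungs. With 3 lungs of each genotype they cannot show that no littermates were paired. With the replicate number as a block 446 genes were called, 0 of the 9 genes and 5 genes of the further lists. Rbm47 stayed at 0.10 (edgeR adjusted p = 0.664). The number of lungs, 3 of each genotype, limits the precision to the intervals given. The cause of these shifts was not tested.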
